A study of Mus musculus with 9 samples.

Results

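The granins and the prohormone processing enzymes are the soluble cargo and the peptide-cutting machinery of dense-core vesicles. They are represented here by 10 genes picked by symbol: the granins and granin-like precursors Scg2, Scg3, Scg5, Chga, Chgb, Vgf and Pcsk1n, and the enzymes Pcsk1, Pcsk2 and Cpe. The deposited table lists 56748 genes, of which 17575 had enough reads to be tested, and all 10 genes were among them. RNA was sequenced from the brain of 7-month-old mice after removal of the cerebellum, with 3 libraries per genotype, each labelled as a separate mouse. One group was wild-type and another was 5xFAD. The third, 5xFAD/Cd5l tg/wt, here also called Cd5l transgenic, carries the 5xFAD background and, in addition, a mouse Cd5l transgene driven by the human PDGF-B promoter. 5xFAD mice carry transgenes driven by the neuronal Thy1 promoter and deposit amyloid β. The labels give no sex, and no group used here holds the Cd5l transgene without 5xFAD. In bulk tissue, fewer cells of a type and less RNA per cell cannot be told apart.

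Neurons store peptides in dense-core vesicles, which bud from the trans-Golgi network and are released on sustained activity. Granins are acidic secretory proteins that aggregate there with the peptide precursors, and several are themselves precursors of active peptides, such as secretoneurin from Scg2 and TLQP peptides from Vgf. The convertases encoded by Pcsk1 and Pcsk2 cut the precursors at basic residues, and carboxypeptidase E (Cpe) trims the basic residues that remain at the cut end. The convertases are bound by 2 of the granin-like proteins. The inhibitor proSAAS (Pcsk1n) binds the Pcsk1 product, and the chaperone encoded by Scg5 binds the Pcsk2 product.

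Several granin and convertase genes are known to carry a cyclic AMP response element (CRE), the site bound by CREB, close to the transcription start. RefSeq promoters on GRCm38.p6 (250 bases before to 50 bases after the start) were found for 8 of the 10 genes, all but Vgf and Cpe. The full element TGACGTCA, which reads the same on both strands, was present in 3 of these 8, namely Scg2, Chgb and Pcsk1, and in 588 of all 32851 promoters in the table (1.79%). The half-site TGACG, searched on both strands and contained in the full element, was present in 7 of the 8, all but Pcsk1n, and in 20.8% of all promoters. The stretches around the element of the 3 genes and the half-site of Chga set Scg2, which was lower in the Cd5l transgenic brains, beside Chgb, Chga and Pcsk1, which did not pass the test. Capitals mark the motif, and every stretch runs 5′ to 3′ on the strand of the gene.
Scg2: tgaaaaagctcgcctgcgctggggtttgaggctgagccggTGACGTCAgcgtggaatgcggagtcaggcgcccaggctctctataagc
Chgb: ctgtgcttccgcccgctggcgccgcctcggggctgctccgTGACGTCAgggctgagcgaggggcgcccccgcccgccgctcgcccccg
Pcsk1: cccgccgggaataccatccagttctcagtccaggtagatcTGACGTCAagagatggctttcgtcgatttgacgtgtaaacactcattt
Chga: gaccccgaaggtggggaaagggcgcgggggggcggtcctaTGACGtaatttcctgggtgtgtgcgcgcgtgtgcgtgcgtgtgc
The Scg2 stretch lies at chr1:79440047-79440134 on the minus strand, with the element 68 to 61 bases before the start. The Chgb stretch lies at chr2:132781530-132781617 on the plus strand, with the element 72 to 65 bases before the start. The Pcsk1 stretch lies at chr13:75089739-75089826 on the plus strand, with the element 78 to 71 bases before the start. The Chga stretch lies at chr12:102554857-102554940 on the plus strand, with the half-site 44 to 40 bases before the start. A match describes the letters only, and its part in the levels of these genes was not tested.

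The libraries held 14575416 to 17865150 counts. Cd5l had 2553 to 3551 counts in each Cd5l transgenic library and at most 1 count in each of the others. Thy1, whose regulatory sequence drives the 5xFAD transgenes, was at 1444 to 1981 CPM (counts per 1000000 after scaling) in the 6 libraries with 5xFAD and at 590.4 to 662 CPM in wild-type. Summed CPM of 12 pan-neuronal markers ranged from 9991 to 10180 in wild-type, from 9785 to 10127 in 5xFAD and from 9521 to 10246 in 5xFAD/Cd5l tg/wt, and no marker of that list passed in any comparison. Several of 16 marker lists, among them those of deep brain regions, set apart 5xFAD/Cd5l tg/wt mice 2 and 3. Their summed hypothalamic markers were 1.89 and 1.98 CPM, against 45.9 to 78.4 CPM in the other 7 libraries, and Oxt, Hcrt, Sim1, Hmx2 and Six6 had 0 counts in both. Hmx2 also had 0 counts in wild-type mouse 2 and 5xFAD/Cd5l tg/wt mouse 1, and Six6 in wild-type mouse 2. Midbrain markers were at 10.52 and 12.53 CPM against 40.6 to 114 CPM elsewhere, and medial habenula markers at 7.55 and 8.41 CPM against 15.1 to 22.2 CPM. Thalamic markers were at 164 and 250 CPM against 310 to 562 CPM, and oligodendrocyte markers at 4609 and 6298 CPM against 6517 to 8138 CPM. Cortical markers were highest in these mice, at 1807 and 1652 CPM against 1179 to 1500 CPM. Wild-type mouse 3 had 1028 CPM of cerebellar and hindbrain markers, against 175 to 242 CPM elsewhere. It also had the highest olfactory bulb markers, 209 CPM against 82.5 to 141 CPM. Its thalamic markers were the highest, 562 CPM against 164 to 399 CPM, and its cortical markers the lowest, 1179 CPM against 1383 to 1807 CPM. 5xFAD/Cd5l tg/wt mouse 1 also stood apart. It had the lowest striatal markers, 472 CPM against 542 to 951 CPM, and the lowest choroid plexus markers, 325 CPM against 426 to 808 CPM. Its pan-neuronal sum (9521 CPM) was the lowest and its midbrain sum (114 CPM) the highest of the 9 libraries.

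In wild-type brain, scaled per kilobase of gene length, the 10 genes spanned a wide range. Cpe was far above the rest at 740.1 ± 52.0 CPM per kb (SD, n = 3), and Pcsk1 was the lowest at 10.9 CPM per kb. Pcsk1n followed Cpe at 199 CPM per kb, then Chgb at 159, Scg2 at 124, Scg5 at 105, Vgf at 94.5, Scg3 at 93.1, Chga at 67.0 and Pcsk2 at 49.2 CPM per kb. Neighbours in that order whose libraries overlapped were Pcsk1n and Chgb, Scg5 and Vgf, and Vgf and Scg3. In 5xFAD the order was the same except that Vgf (108 CPM per kb) stood above Scg5 (105.5 CPM per kb), a pair whose libraries overlapped. In 5xFAD/Cd5l tg/wt, Scg2 (77.3 CPM per kb) stood below Scg5 (98.3 CPM per kb) and Scg3 (95.7 CPM per kb), both of which it exceeded in the other genotypes, and its libraries overlapped those of Scg5, of Scg3 and of Vgf (71.6 CPM per kb). Cpe, Pcsk1n and Chgb kept the 3 highest mean levels per kilobase in every genotype. In 5xFAD, however, the libraries of Chgb (144.8 to 157.8 CPM per kb) overlapped those of Scg2 (126.6 to 153 CPM per kb).

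**Figure D1:**
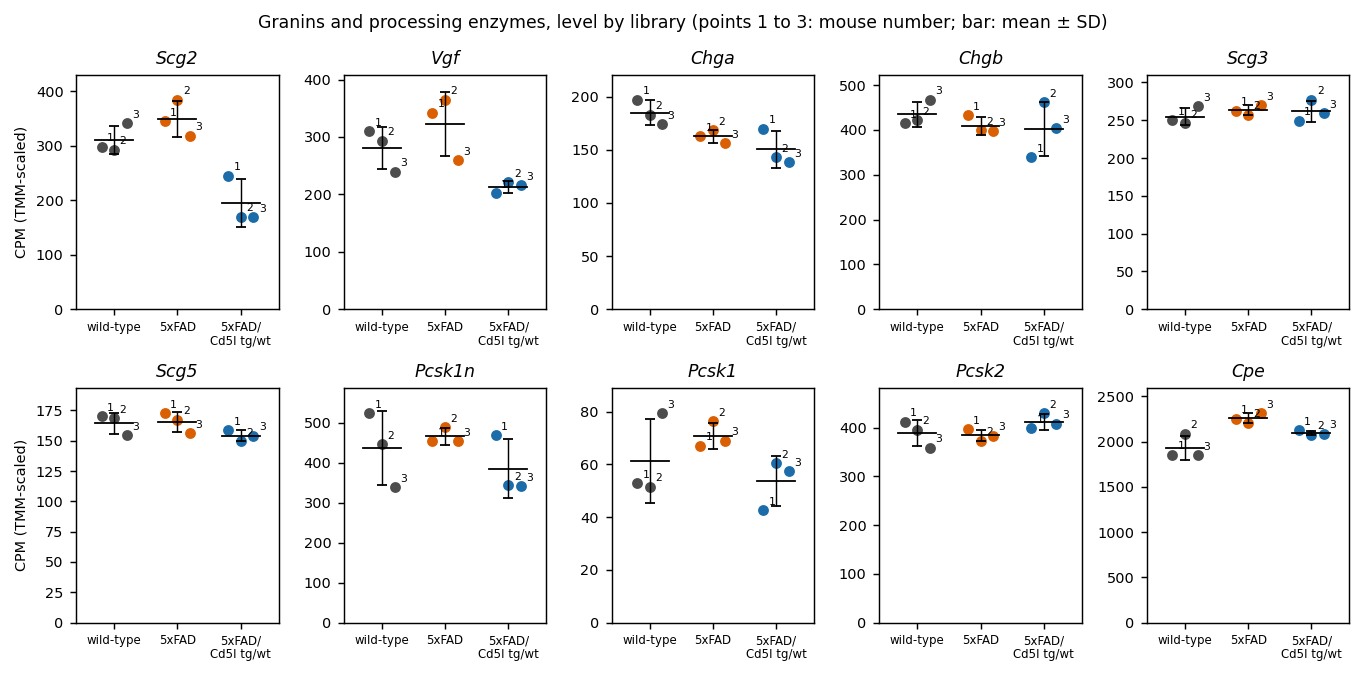
Level of each of the 10 genes (y axis, CPM after TMM scaling) in the 3 genotypes (x axis). Points are libraries numbered by mouse, and bars give the mean ± SD of 3 libraries. Scg2 in 5xFAD/Cd5l tg/wt lies between 169 and 245 CPM, below the 293 to 385 CPM of the other 6 libraries, and Vgf in that genotype lies between 202 and 221 CPM, below the 239 CPM or more of the others.

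The comparison of 5xFAD with wild-type asks what the amyloid model does to these genes. None of the 10 passed the test: 0 rose and 0 fell at an adjusted p under 0.05 (edgeR's quasi-likelihood test, Benjamini-Hochberg adjustment over all tested genes), where 3.50% of all tested genes passed. The log2 fold changes ran from -0.18 (Chga) to 0.23 (Cpe), 7 positive and 3 negative, with a median of 0.07 beside -0.01 over all tested genes. Only Cpe was under an unadjusted p of 0.05, and it was also the 1 gene called by DESeq2 and by limma-voom.

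Cpe, the carboxypeptidase, measured 1855, 2088 and 1850 CPM in wild-type and 2255, 2210 and 2316 CPM in 5xFAD. All 3 5xFAD libraries were above all 3 wild-type libraries. Cpe and Chga were the 2 of the 10 genes with no overlap between the libraries of wild-type and 5xFAD, which held for 24.3% of all tested genes. The log2 fold change of Cpe was 0.23 ± 0.06 (SE; 95% interval 0.10 to 0.36), with an adjusted p of 0.0627. Adjusted p was 0.0150 with DESeq2, 0.0496 with limma-voom, 0.0307 without wild-type mouse 2 and 0.0425 without 5xFAD/Cd5l tg/wt mouse 1. The call thus turned on such choices. Summed astrocyte markers were 4194 to 4651 CPM in wild-type, 5261 to 5390 CPM in 5xFAD and 5319 to 5575 CPM in 5xFAD/Cd5l tg/wt. All 8 had positive log2 fold changes in 5xFAD against wild-type, and 1 passed. Their part in the Cpe values was not tested.

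Chga, the founding chromogranin, measured 197, 183 and 174 CPM in wild-type and 163, 169 and 156 CPM in 5xFAD. Every 5xFAD library was below every wild-type library. The log2 fold change was -0.18 ± 0.08 (SE), with an adjusted p of 0.307. Scg2 (0.17 ± 0.13), Vgf (0.20 ± 0.12) and Pcsk1 (0.21 ± 0.16) had positive values of similar size with overlapping libraries and adjusted p of 0.589, 0.462 and 0.587. Pcsk1 measured 52.9, 51.4 and 79.5 CPM in wild-type, so that mouse 3 was the highest. That library had the highest cerebellar, olfactory bulb and thalamic markers and the lowest cortical markers. Without that library and 5xFAD/Cd5l tg/wt mice 2 and 3, Pcsk1 was 0.45 higher on the log2 scale in 5xFAD (adjusted p 0.00476). The other 5 genes, Scg3, Scg5, Chgb, Pcsk2 and Pcsk1n, had values between -0.09 and 0.09 with adjusted p of 0.732 or more.

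The second comparison, Cd5l transgenic mice against 5xFAD, asks what forced Cd5l expression adds in the amyloid model. Scg2 and Vgf fell, no gene rose, and 8 of the 10 did not pass. Genes that passed made up 6.23% of all tested genes in either direction and 0.888% in the lower direction, which was 156 genes. By p-value Scg2 was number 5 and Vgf number 22 among genes with lower values. All 7 granins and granin-like genes had negative log2 fold changes, but 5 of them did not pass, and their values ran from -0.01 for Scg3 to -0.85 for Scg2. Without Cd5l transgenic mice 2 and 3, 0 of the 10 genes and 92 of all tested genes passed, and with wild-type mouse 3 left out as well 4 of the 10 (Scg2, Vgf, Chgb and Pcsk1, all lower) and 630 of all tested genes passed. The median of the 10 was -0.11, beside 0.01 over all tested genes.

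Scg2, the precursor of secretoneurin (1:79412386-79417837, GRCm39, minus strand), measured 345, 385 and 318.5 CPM in 5xFAD and 245, 169.7 and 169 CPM in 5xFAD/Cd5l tg/wt. Every Cd5l transgenic library was below every 5xFAD and every wild-type library, and mice 2 and 3 were lower than mouse 1. The means were 349 ± 33.4 and 194.5 ± 43.9 CPM (SD, n = 3 each). Scg2 fell by 44.4%, a log2 fold change of -0.85 ± 0.13 (SE; 95% interval -1.13 to -0.56), with an adjusted p of 0.00291. The call held when any 1 of the 9 libraries was left out.

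Mice 2 and 3, the lower libraries for Scg2, are those with hypothalamic markers near 0. Mouse 1 had the highest hypothalamic sum of all 9 libraries at 78.4 CPM, and at 245 CPM of Scg2 it was still below the lowest library of the other genotypes, 293 CPM. With mice 2 and 3 both left out, which leaves 1 Cd5l transgenic library and assumes that it varies like the other groups, the log2 fold change was -0.53 with an adjusted p of 0.088. With wild-type mouse 3 left out as well, it was -0.53 with an adjusted p of 0.0087. With mouse 1 left out it was -1.05. The part of regional make-up in the size of the difference was not tested.

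**Figure D2:**
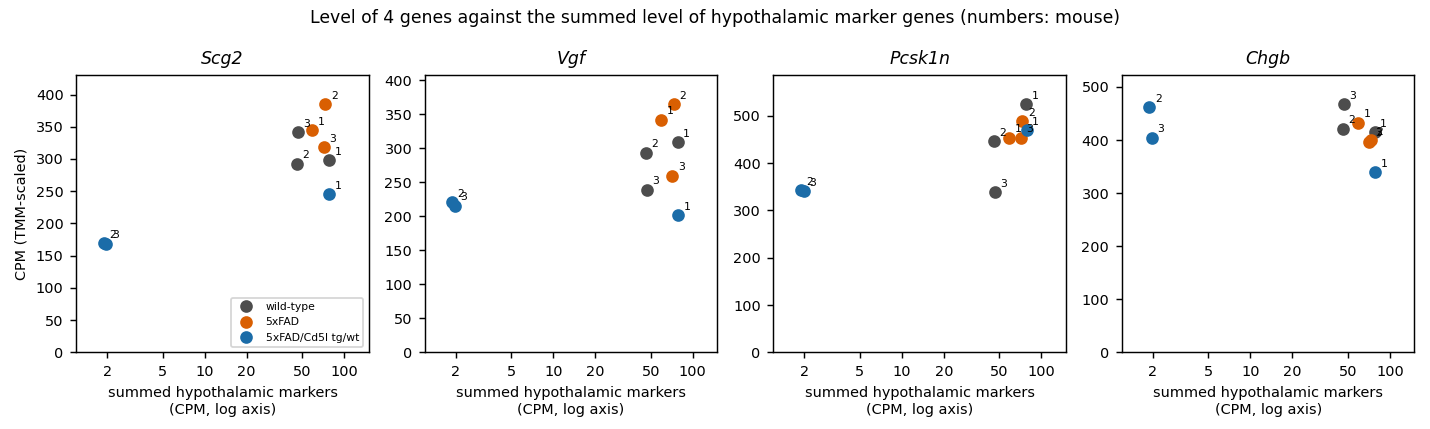
Level of Scg2, Vgf, Pcsk1n and Chgb (y axis, CPM) against the summed level of hypothalamic marker genes (x axis, CPM, log axis). The sum covers the 8 tested genes of the 12 listed. Each library is 1 point, coloured by genotype and numbered by mouse. 5xFAD/Cd5l tg/wt mice 2 and 3 sit near 2 CPM of markers, with Scg2 at 169.7 and 169 CPM; mouse 1 sits at 78.4 CPM of markers and is the lowest of all 9 libraries for Vgf and Chgb.

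Vgf, an activity- and neurotrophin-regulated precursor (5:137055246-137062205, plus strand), measured 342, 365 and 259.7 CPM in 5xFAD and 202, 221 and 216 CPM in 5xFAD/Cd5l tg/wt. The 3 Cd5l transgenic libraries lay close together, below every 5xFAD and wild-type library, and mouse 1 was the lowest. Mouse 1 kept its hypothalamic markers but had the lowest striatal and choroid plexus marker sums of all libraries. In a fit with mouse 1 as the only Cd5l transgenic library, 19 of 22 activity-dependent genes (given below) had negative values against 5xFAD. The median of that list was then -0.69. The part of these regional and activity-gene differences in the Vgf value was not tested. Vgf fell by 33.9%, a log2 fold change of -0.60 ± 0.12 (SE; 95% interval -0.86 to -0.34), with an adjusted p of 0.0132. Without 5xFAD/Cd5l tg/wt mice 2 and 3 the value was -0.70 (adjusted p 0.126), and without wild-type mouse 3 as well it was -0.69 (adjusted p 0.0184). The call was lost without 5xFAD mouse 1 (adjusted p 0.077), 5xFAD mouse 2 (0.0883) or 5xFAD/Cd5l tg/wt mouse 3 (0.0523).

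The chromogranins and the remaining secretogranins did not pass. Chgb, the most abundant granin by length-scaled level after Pcsk1n, measured 432.5, 399 and 397 CPM in 5xFAD and 339.6, 462 and 404 CPM in 5xFAD/Cd5l tg/wt. The Cd5l transgenic libraries spread on both sides of the 5xFAD libraries, mouse 1 being the lowest and mouse 2 the highest. Its log2 fold change was -0.03 ± 0.10 (SE; 95% interval -0.24 to 0.18), with an adjusted p of 0.897. With only mouse 1 in the Cd5l transgenic group and wild-type mouse 3 left out it was -0.29 (adjusted p 0.0392).

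Chga measured 169.8, 143 and 138 CPM in 5xFAD/Cd5l tg/wt, and its log2 fold change was -0.11 ± 0.08 (adjusted p 0.458). Mouse 1 was above all 3 5xFAD libraries and mice 2 and 3 were below them, so without mice 2 and 3 the value turned to 0.04. Scg3, which tethers granin aggregates to the vesicle membrane, measured 262, 257 and 269.9 CPM in 5xFAD and 249, 277 and 259.4 CPM in 5xFAD/Cd5l tg/wt. Its libraries interleaved, and the 95% interval of its log2 fold change, -0.15 to 0.13, did not reach the size seen for Scg2 or Vgf.

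The 2 convertase-binding proteins did not pass either. Pcsk1n measured 453, 489 and 454 CPM in 5xFAD and 469, 343 and 341 CPM in 5xFAD/Cd5l tg/wt. As for Scg2, mice 2 and 3 were low, but mouse 1 lay within the 5xFAD range. Wild-type mouse 3 was equally low at 338 CPM. The log2 fold change of Pcsk1n was -0.28 ± 0.15 (SE; 95% interval -0.59 to 0.04), with an adjusted p of 0.292. Scg5 measured 173, 167.5 and 156 CPM in 5xFAD and 159, 149.8 and 154 CPM in 5xFAD/Cd5l tg/wt, which overlap, with a log2 fold change of -0.10 ± 0.07 (adjusted p 0.404).

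None of the 3 enzymes passed, although the libraries of the 2 genotypes were separate for each. Pcsk1 measured 67.0, 76.3 and 69.0 CPM in 5xFAD and 42.7, 60.4 and 57.4 CPM in 5xFAD/Cd5l tg/wt. All 3 Cd5l transgenic libraries were lower, mouse 1 by most. Its log2 fold change was -0.40 ± 0.16 (SE; 95% interval -0.76 to -0.05), with an adjusted p of 0.164. Left with mouse 1 alone in the Cd5l transgenic group and without wild-type mouse 3, the value was -0.75 (adjusted p 0.00249), and without wild-type mouse 3 only it was -0.41 (adjusted p 0.0498).

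Pcsk2 measured 397, 373 and 383.5 CPM in 5xFAD and 399, 430.4 and 408 CPM in 5xFAD/Cd5l tg/wt. It was the only gene of the 10 with a positive log2 fold change, 0.10 ± 0.07 (adjusted p 0.397). The lncRNA genes Pcsk2os1 and Pcsk2os2 overlap it on the other strand and held 915 and 1090 counts over all libraries, against 56797 for Pcsk2. Whether counting used the strand is not given in the sources used here. Cpe measured 2123, 2077 and 2088 CPM in 5xFAD/Cd5l tg/wt, all below the 3 5xFAD libraries, with a log2 fold change of -0.11 ± 0.06 (adjusted p 0.311). In all, 5 of the 10 genes (Scg2, Vgf, Pcsk1, Pcsk2 and Cpe) had no overlap between Cd5l transgenic and 5xFAD libraries, as had 28.7% of all tested genes.

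**Figure D3:**
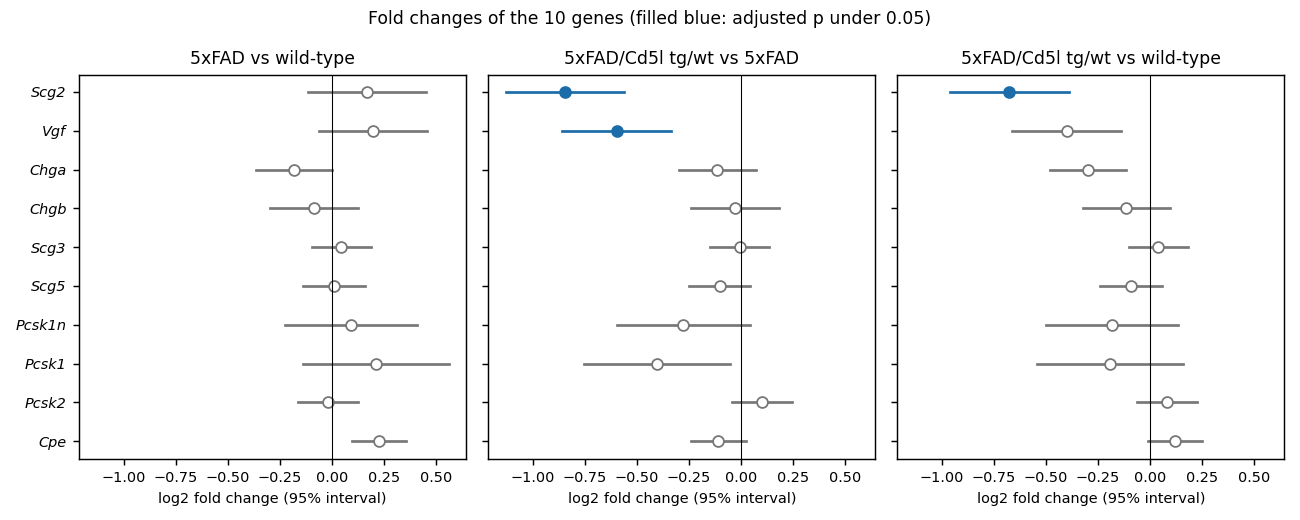
Log2 fold change of the 10 genes (x axis) with its 95% interval (lines) in the 3 comparisons (panels), from edgeR's quasi-likelihood fit of all 9 libraries. Filled points passed at an adjusted p under 0.05: Scg2 (-0.85) and Vgf (-0.60) in 5xFAD/Cd5l tg/wt against 5xFAD, Scg2 (-0.68) in 5xFAD/Cd5l tg/wt against wild-type, and none in 5xFAD against wild-type.

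The last comparison set the same Cd5l transgenic libraries against wild-type and so shares them with the comparison before it. Scg2 fell and the other 9 genes did not pass. In this comparison 1.58% of all tested genes passed in either direction and 0.199%, or 35 genes, in the lower direction. Scg2 measured 298, 293 and 341 CPM in wild-type. All 3 were above the Cd5l transgenic libraries. It fell by 37.4%, a log2 fold change of -0.68 ± 0.13 (SE; 95% interval -0.96 to -0.39), with an adjusted p of 0.0203. The call was lost without wild-type mouse 1 (adjusted p 0.0515), wild-type mouse 3 (0.0771), 5xFAD/Cd5l tg/wt mouse 2 (0.081) or mouse 3 (0.11), and when the 5xFAD libraries were left out of the fit (0.0672). Without both Cd5l transgenic mice 2 and 3 the value was -0.34 (adjusted p 0.297), and with wild-type mouse 3 left out as well it was -0.27 (adjusted p 0.207).

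Vgf measured 309.6, 294 and 239 CPM in wild-type, again above all 3 Cd5l transgenic libraries. Its log2 fold change was -0.40 ± 0.12 (SE; 95% interval -0.66 to -0.14), and the adjusted p of 0.161 missed the threshold. Chga was lower in each Cd5l transgenic library than in each wild-type library, with a log2 fold change of -0.30 ± 0.08 (adjusted p 0.136). Without Cd5l transgenic mouse 1 it was -0.40 (adjusted p 0.013). DESeq2 called Vgf (adjusted p 0.0498) and Chga (0.0471) beside Scg2. Scg2, Vgf and Chga were the 3 of the 10 genes with no overlap between Cd5l transgenic and wild-type libraries, against 14.5% of all tested genes. The other 7 genes had values between -0.19 (Pcsk1) and 0.12 (Cpe) with adjusted p of 0.462 or more. Among them Chgb moved from -0.11 to -0.36 without Cd5l transgenic mice 2 and 3 (adjusted p 0.133), and to -0.31 with wild-type mouse 3 left out as well (adjusted p 0.0497), where it was the 1 gene of the 10 called, among 360 genes in all.

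The balance of each convertase with its binding protein was read as the ratio of their counts within a library, which needs no scaling between libraries. The ratio of Pcsk1 to Pcsk1n was 0.101, 0.115 and 0.235 in wild-type, 0.148, 0.156 and 0.152 in 5xFAD and 0.091, 0.176 and 0.169 in 5xFAD/Cd5l tg/wt. The wild-type and Cd5l transgenic libraries spread on both sides of the 5xFAD libraries. The 3 differences in mean log2 ratio, 0.12 for 5xFAD against wild-type, -0.13 for 5xFAD/Cd5l tg/wt against 5xFAD and -0.01 against wild-type, were not larger than that spread (exact two-sided permutation tests, p 0.9, 1 and 1).

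The ratio of Pcsk2 to Scg5 was 2.43, 2.35 and 2.33 in wild-type, 2.29, 2.23 and 2.45 in 5xFAD and 2.51, 2.87 and 2.65 in 5xFAD/Cd5l tg/wt. The 3 Cd5l transgenic libraries were above all of the other 6. The difference in mean log2 ratio was 0.20 against 5xFAD and 0.18 against wild-type, each with an exact two-sided permutation p of 0.1, the smallest that 3 against 3 libraries allow. Benjamini-Hochberg adjustment over the 6 ratio tests gave 0.3 for both. The difference between 5xFAD and wild-type was -0.03 (exact permutation p 0.6).

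Beyond the 10 genes, 5 lists of the peptide secretory pathway were described by their counts of passing genes and medians. These counts stand beside the shares of all tested genes that passed, 3.50% in 5xFAD against wild-type, 6.23% (0.888% lower) in Cd5l transgenic mice against 5xFAD and 1.58% (0.199% lower) against wild-type. Of 18 other processing enzymes, all tested, none passed in 5xFAD/Cd5l tg/wt against 5xFAD (median log2 fold change -0.01). Pam, which amidates peptide ends, was at 215, 219.5 and 222 CPM in 5xFAD and 211, 203 and 176 CPM in the Cd5l transgenic libraries (log2 fold change -0.15, adjusted p 0.316). The lysosomal proteases Ctsb and Ctsl, which can also cut prohormones, were the 2 that rose in 5xFAD against wild-type, by 0.32 (adjusted p 0.0172) and 0.41 (adjusted p 0.0203). Both also rose in Cd5l transgenic mice against wild-type, by 0.33 (adjusted p 0.0233) and 0.54 (adjusted p 0.00511). All 8 microglial markers rose in 5xFAD as well, with a summed level of 279 to 309 CPM in wild-type, 497 to 661 CPM in 5xFAD and 612 to 676 CPM in 5xFAD/Cd5l tg/wt, and their part in the protease values was not tested. In 5xFAD against wild-type, the Ctsb call was lost without any 1 of wild-type mice 1 and 2 and the 3 5xFAD mice, and the Ctsl call without wild-type mice 1 or 2 or 5xFAD mice 1 or 3. In Cd5l transgenic mice against wild-type, the Ctsb call was lost without any 1 library other than Cd5l transgenic mice 1 and 2, and the Ctsl call was never lost.

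Of 40 neuropeptide precursors, 29 were tested. In 5xFAD/Cd5l tg/wt against 5xFAD 0 rose, 3 fell and 26 of 29 values were negative, with a median of -0.53. Pnoc, the nociceptin precursor, measured 11.98, 11.2 and 10.4 CPM in 5xFAD and 8.59, 4.38 and 5.87 CPM in the Cd5l transgenic libraries, lowest in mice 2 and 3 (log2 fold change -0.83, adjusted p 0.0324). Tac1, the substance P precursor, measured 55.5, 50.7 and 48.2 CPM in 5xFAD and 33.4, 36.4 and 36.8 CPM in the Cd5l transgenic libraries (-0.53, adjusted p 0.0474). Crh, corticotropin-releasing hormone, measured 7.15, 9.04 and 6.63 CPM in 5xFAD and 2.26, 4.86 and 4.68 CPM in the Cd5l transgenic libraries, lowest in mouse 1 (-0.95, adjusted p 0.0475). For all 3 genes every Cd5l transgenic library was below every 5xFAD library.

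The neuropeptide list shares 6 of its genes with the hypothalamic markers, among them Oxt and Hcrt at 0 counts in Cd5l transgenic mice 2 and 3. With both mice left out, which leaves 1 Cd5l transgenic library, 13 of the 30 values then tested were positive and 17 negative. The median of the list was then -0.19. Each of the 3 calls was lost on leaving out single libraries: Tac1 without any 1 library other than wild-type mice 2 and 3 (adjusted p 0.065 to 0.19), Pnoc without any 1 of the 5xFAD mice or Cd5l transgenic mice 2 and 3 (0.0556 to 0.132), and Crh without any 1 library other than wild-type mouse 3 and Cd5l transgenic mouse 1 (0.0525 to 0.213). Without Cd5l transgenic mouse 1, 16 genes of the list fell, and 2069 genes were called in all in place of 1095. Without both mice 2 and 3, Crh was at -1.77 (adjusted p 0.0385), Pnoc at -0.40 (adjusted p 0.344) and Tac1 at -0.64 (adjusted p 0.213). In 5xFAD against wild-type, Grp rose by 0.83 (adjusted p 0.0459) and Calca fell by 1.27 (adjusted p 0.0324), and the list's median was 0.18. Both calls were lost on leaving out several single libraries, including each of the 5xFAD mice. In 5xFAD/Cd5l tg/wt against wild-type only Calca fell, by 1.79 (adjusted p 0.00823, and 0.055 without Cd5l transgenic mouse 3), and the median was -0.39. Without both Cd5l transgenic mice 2 and 3, 15 values were positive and 15 negative, with a median of 0.02, and with wild-type mouse 3 left out as well the median was -0.03.

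Of 36 genes of dense-core vesicle biogenesis and release, all tested, 1 fell and none rose in Cd5l transgenic mice against 5xFAD. It was Doc2b, a calcium sensor of vesicle release, at 74.5, 72.5 and 64.0 CPM in 5xFAD and 46.9, 46.8 and 43.2 CPM in the Cd5l transgenic libraries. The Cd5l transgenic libraries, mouse 1 included, were also below the 50.7, 56.6 and 58.6 CPM of wild-type. The log2 fold change was -0.62 ± 0.09 (SE), with an adjusted p of 0.00144, and it passed on leaving out any 1 library. Without both Cd5l transgenic mice 2 and 3 it was -0.60 (adjusted p 0.0708). The median of the list was -0.07, with 27 negative values. In 5xFAD against wild-type Doc2b was the 1 gene that rose, by 0.35 (adjusted p 0.0427), a call lost without wild-type mice 1 or 2, 5xFAD mice 1 or 2, or Cd5l transgenic mice 2 or 3.

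Of 22 activity-dependent genes, all tested, 1 fell in 5xFAD/Cd5l tg/wt against 5xFAD in the fit of all 9 libraries. None passed in the other comparisons of that fit. Nptx2, a pentraxin secreted at excitatory synapses, measured 63.3, 72.1 and 54.0 CPM in 5xFAD and 28.8, 42.2 and 44.9 CPM in the Cd5l transgenic libraries. All 3 Cd5l transgenic libraries were lower, mouse 1 by most, as for Vgf and Pcsk1. The log2 fold change was -0.71 ± 0.15 (SE), with an adjusted p of 0.0145, and it did not pass without 5xFAD mouse 1 (0.0632) or 5xFAD mouse 2 (0.0916). The median of the list was 0.14. With Cd5l transgenic mice 2 and 3 left out, which leaves 1 Cd5l transgenic library, 19 of 22 values were negative and the median was -0.69. Against wild-type, that fit gave 20 negative values and a median of -0.78, where all 9 libraries gave a median of 0.01. The sign of this list thus turned on which Cd5l transgenic libraries were read.

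Of 11 CREB and REST regulators, Crtc2, a CREB coactivator, was the 1 gene that passed. It measured 21.3, 20.3 and 21.5 CPM in wild-type, 16.0, 13.5 and 14.0 CPM in 5xFAD and 19.97, 24.95 and 22.46 CPM in 5xFAD/Cd5l tg/wt. The 5xFAD libraries were below all others. Crtc2 fell by 0.54 in 5xFAD against wild-type (adjusted p 0.0193) and rose by 0.64 in 5xFAD/Cd5l tg/wt against 5xFAD (adjusted p 0.00629), comparisons that share the 5xFAD libraries. The first call was lost without wild-type mice 1 or 2 or 5xFAD mice 2 or 3, and the second without 5xFAD mouse 2 (0.0508) or without both Cd5l transgenic mice 2 and 3 (0.45, adjusted p 0.184). Endothelial and mural markers were also lowest in 5xFAD, with a summed level of 158 to 193 CPM against 248 to 298 CPM in the other 6 libraries. Of the 6 markers, 3 fell in 5xFAD against wild-type and 5 rose in Cd5l transgenic mice against 5xFAD, and their part in the Crtc2 values was not tested. Creb1 was at 51.7 to 67.8 CPM over all 9 libraries and did not pass.

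**Figure D4:**
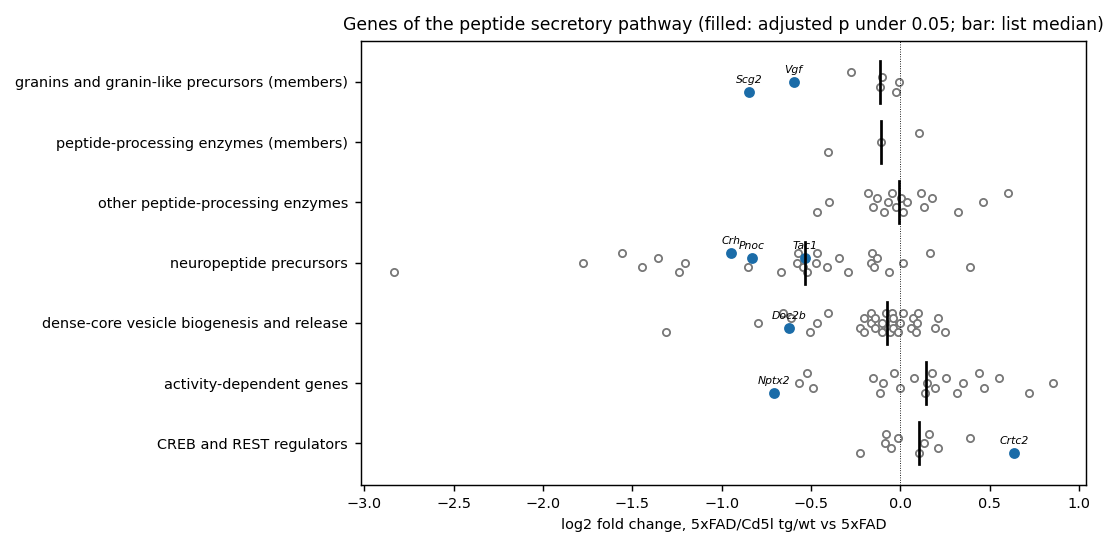
Log2 fold change in 5xFAD/Cd5l tg/wt against 5xFAD (x axis) of each tested gene of the granins, the processing enzymes and 5 further lists (rows). Filled points passed at an adjusted p under 0.05, and vertical bars are list medians. The neuropeptide precursors have the lowest median (-0.53), and Scg2, Vgf, Pnoc, Tac1, Crh, Doc2b, Nptx2 and Crtc2 are the genes that passed.

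Genes whose levels followed those of Scg2 and Vgf most closely were looked up among 10264 protein-coding genes with a mean of at least 10 CPM, by Pearson's r of log2 CPM over the 9 libraries, as a description without a test. For Scg2 they were Hmga1 (r 0.988), Aurkaip1 (0.978), Ube2z (0.975), Ndufb4 (0.973) and Morf4l1 (0.97). Hmga1, a chromatin protein, ranged from 33.9 CPM in Cd5l transgenic mouse 2 to 51.2 CPM in 5xFAD mouse 2, the libraries at or next to the ends of the Scg2 range. For Vgf they were Mlf2 (0.982), Rtn2 (0.963), Cct7 (0.962), Ndufb6 (0.948) and Xxylt1 (0.942). Mlf2 ranged only from 373.5 to 427 CPM. In Cd5l transgenic mice against 5xFAD, the log2 fold changes of these 5 genes ran from -0.13 (Mlf2) to -0.31 (Ndufb6). That of Vgf was -0.60. Ndufb6 itself passed edgeR's quasi-likelihood test there (adjusted p 0.0354). The 9 libraries share genotype differences and, for some of them, the regional differences given above.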

How the data were processed

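The deposited table holds raw read counts per gene, whole numbers as the authors deposited them, for 56748 genes in 9 libraries, with Ensembl identifiers, GRCm39 coordinates and gene lengths. The build is GRCm39 per the submitters' processing notes. The aligner, the counter and any use of strand: not given in the sources used here. Genotypes came from the labels. Whether litters or cages were shared is not given, so p-values measure the spread between these 9 mice.

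Genes were kept by filterByExpr (minimum count 10, minimum total 15), leaving 17575. Counts were TMM-scaled (factors 0.987 to 1.018), fitted in R 4.3.3 with edgeR 4.0.16 (quasi-likelihood; 9 libraries, a coefficient for each genotype; limma 3.58.1) and adjusted by Benjamini-Hochberg over all tested genes at 0.05. The deposited gene length, the other column used, gave CPM per kilobase. DESeq2 1.42.0, limma-voom, other scalings and filters, a replicate block and leaving out libraries were alternatives. Deviations from the genotype mean correlated at r -0.1 to 0.154 for libraries with the same number, against -0.16 to 0.146 for different numbers. With few libraries per genotype, these values cannot show whether the numbers stand for litters, cages or batches. The labels do not say, so mice were not paired.

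The genes and lists were chosen with earlier results of these data known. Named were all 10 genes, up to 6 genes per other list with the smallest p (passing genes first), up to 4 per marker list, and the 5 genes most like each passing one. Leaving out Cd5l transgenic mice 2 and 3 together, and the alternatives for the other lists, were added after seeing the data.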

Additional observations from a re-analysis of the deposited data

How the results depend on the processing

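Over the 10 genes and 3 comparisons, 630 alternative values were computed, of which 578 kept direction and side of the threshold, 12 lost the call, 20 gained it and 20 changed sign. Genes called numbered 615, 1095 and 277 in, by order, 5xFAD against wild-type (A), Cd5l transgenic mice against 5xFAD (B) and the same against wild-type (C), and the 10 genes held 0, 2 and 1 of them. At an adjusted p under 0.1 these were 958, 1940 and 417 genes, with 1 of the 10 in A; under 0.01, 197, 339 and 147 genes, with 1 and 0 of the 10 in B and C. Without a filter they were 1354, 2063 and 1062 genes, with 1, 4 and 3 of the 10. Cpe, at an adjusted p of 0.0627 in the main fit, passed in A with a filter of 1 CPM, with limma-voom and with DESeq2. In C, DESeq2 gave 3 of the 10 and 472 genes. A fit of only the 6 libraries compared gave 176 genes and 0 of the 10 in C. Without the 3 libraries apart in regional markers, genes called were 1154 and 630 in A and B, with 2 and 4 of the 10, and 360 genes with 1 of the 10 in C. Without Cd5l transgenic mice 2 and 3, which leaves fewer samples, 92 genes were called in B, and 1, 0 and 0 of the 10. Leaving out 1 library gave 206 to 850, 278 to 2069 and 158 to 686 genes, and 0 to 1, 1 to 3 and 0 to 2 of the 10. A replicate block, which the labels do not justify, gave 506, 836 and 240 genes and changed no call of the 10, so paired values are not given elsewhere. The cause of these shifts was not tested.

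Some signs changed. In A, Scg5 was -0.00109 with total-count scaling and -0.0212 without the 3 libraries, Pcsk1n -0.0487 without the 3 libraries, and leaving out 1 library gave -0.0317 to 0.0508 for Scg5, -0.0722 to 0.0287 for Pcsk2 and -0.0595 to 0.248 for Pcsk1n. In B, Chga was 0.0447 without the 3 libraries and 0.0423 without Cd5l transgenic mice 2 and 3, and leaving out 1 library gave -0.0493 to 0.0255 for Scg3 and -0.14 to 0.0778 for Chgb. In C, Scg3 was -0.0339 and Pcsk1n 0.102 without Cd5l transgenic mice 2 and 3, Pcsk2 was -0.0248 without the 3 libraries, and leaving out 1 library gave -0.00278 to 0.0772 for Scg3 and -0.307 to 0.0366 for Pcsk1. For the ratio of Pcsk1 to Pcsk1n, leaving out 1 library gave -0.114 to 0.495, -0.296 to 0.182 and -0.24 to 0.369 in A, B and C, and for Pcsk2 to Scg5 in A it gave -0.0665 to 0.00331. Each library held 14575416 or more counts, and no alternative varied the depth.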
